A study of Arabidopsis thaliana with 18 samples.

Results

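The genes described here are 46 nuclear loci of Arabidopsis thaliana that encode the photosynthetic apparatus. They were taken from a list of locus codes and comprise the light-harvesting genes LHCA and LHCB, the nuclear subunits of photosystems I and II, and the small subunits of Rubisco. Of the 46 loci, 44 were in the table of 30014 genes; LHCB1.2 (AT1G29910) and PSAH1 (AT3G16140) were not analysed here. The 44 genes were 6 LHCA, 13 LHCB, 11 photosystem I, 10 photosystem II and 4 RBCS genes.

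Total RNA was hybridised to 18 AGRONOMICS1 tiling arrays, 3 labelled as biological replicates for each of 6 groups. The groups were the mutant rdo5-1 and the control line NIL-DOG1, which the labels call wild type, each as siliques taken 14 days after pollination, as dry seeds fresh from harvest, and as seeds after 6 h of imbibition. RDO5 (REDUCED DORMANCY 5, AT4G11040) is a seed dormancy gene, and NIL-DOG1 carries the name of the dormancy gene DOG1. All plants grew on soil with 16 h of light at 22 °C and 8 h of dark at 16 °C, and no treatment was given. The background of the rdo5-1 allele, and how many plants or lines each replicate came from, are not given in the labels, so p-values measure the spread between these samples. A silique is the whole fruit, so its RNA comes from the fruit wall as well as from the seeds inside it.

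Photosystem II splits water and photosystem I reduces ferredoxin; each is a core of plastid-encoded and nuclear-encoded proteins surrounded by chlorophyll-binding antenna proteins, LHCB around photosystem II and LHCA around photosystem I. Rubisco fixes carbon dioxide and is built from a plastid-encoded large subunit and nuclear-encoded small subunits. Arabidopsis embryos are green and photosynthetic during seed filling and lose their chlorophyll as the seed matures and dries.

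Values are log2 expression values, and a change is a difference of group means on that scale, given with its standard error (SE). A gene was called where limma's p-value, adjusted by the Benjamini-Hochberg method over all 30014 genes, was under 0.05. RDO5 itself was at 5.62, 5.89 and 5.08 in rdo5-1 siliques against 6.60, 6.50 and 6.49 in NIL-DOG1 siliques. It was at 9.44, 9.45 and 9.64 in rdo5-1 dry seeds against 10.43, 10.41 and 10.47 in NIL-DOG1 dry seeds. In imbibed seeds it was at 8.47, 8.43 and 8.48 in rdo5-1 against 9.80, 9.79 and 9.81 in NIL-DOG1. The arrays labelled rdo5-1 were the lower ones at every stage. Replicate arrays correlated at 0.990 to 0.995 across genes, values ran from 1.89 to 14.67, array medians lay between 4.03 and 4.35, and no array stood apart.

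Photosynthesis genes were high in siliques of both genotypes and low in seeds. The mean over the 44 genes was 10.12 to 10.31 on the 3 rdo5-1 silique arrays and 10.05 to 10.24 on the 3 NIL-DOG1 silique arrays. On dry seed arrays it was 5.30 to 5.37 in rdo5-1 and 5.31 to 5.33 in NIL-DOG1. On imbibed seed arrays it was 5.14 to 5.19 in rdo5-1 and 5.09 to 5.14 in NIL-DOG1. The stages did not overlap in this mean, and the genotypes overlapped in siliques and in dry seeds, and also in imbibed seeds, where the highest NIL-DOG1 array lay just above the lowest rdo5-1 array. In siliques only 1 of the 44 genes in rdo5-1 and 2 in NIL-DOG1 lay below the median of all genes; in dry seeds 6 and 8 did, and in imbibed seeds 8 and 7. A dim value holds background, so the change of a gene that reaches the bottom of the range may be understated.

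**Figure D1:**
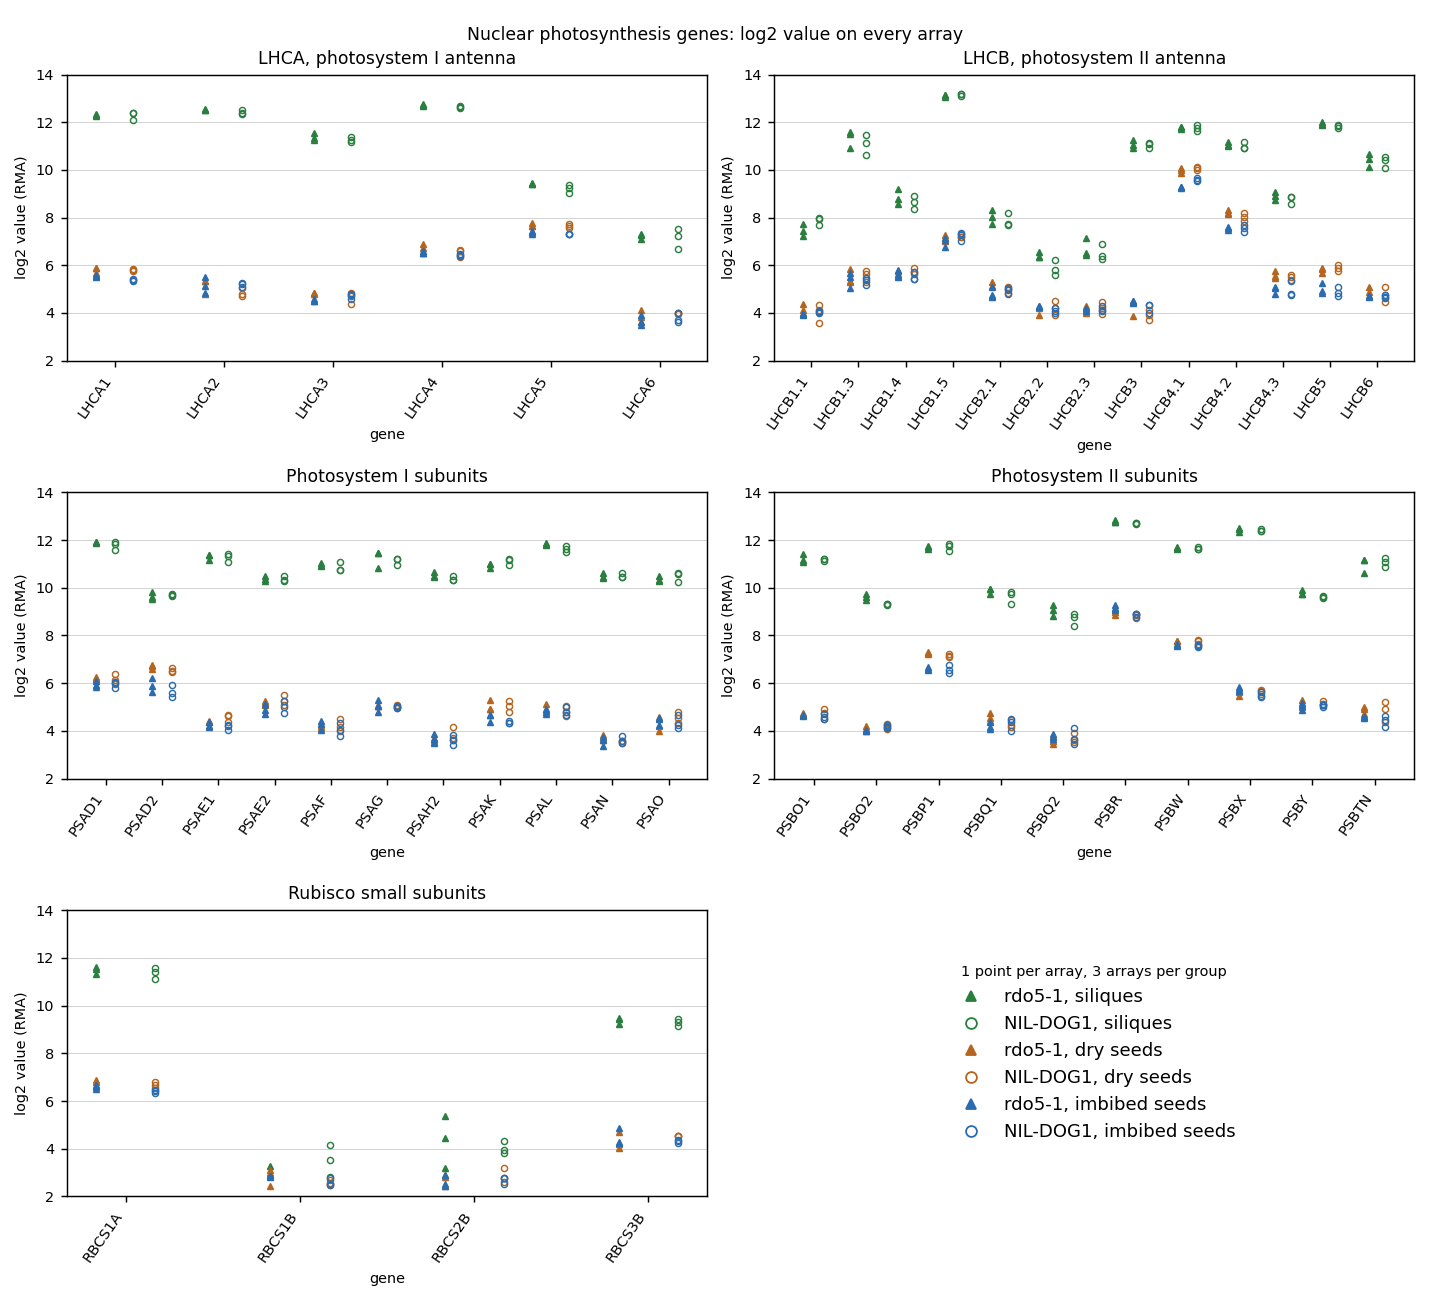
Log2 value (y axis) of each of the 44 genes (x axis, 1 panel for each of the 5 classes) on each of the 18 arrays, 1 point per array, with rdo5-1 as filled triangles to the left of NIL-DOG1 as open circles and colours for siliques, dry seeds and imbibed seeds. Most genes sit between 9 and 13 in siliques and between 3.5 and 8 in seeds, and the points of the 2 genotypes lie close together.

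In dry seeds against siliques, 43 of the 44 genes fell in rdo5-1, where 25.7% of all genes fell, and 44 of 44 fell in NIL-DOG1, where 26.6% of all genes fell, so both shares were far above those of all genes. None rose in either genotype, where 27.2% and 27.4% of all genes rose. The median change of the 44 genes was -5.47 in rdo5-1 and -5.23 in NIL-DOG1, beside a median over all genes of 0.06 and 0.05. A fall of at least 16-fold was called for 29 of the 44 genes in both genotypes; 1.58% of all genes fell that far in rdo5-1 and 1.54% in NIL-DOG1. In bulk samples, fewer cells of a type and less RNA per cell cannot be told apart.

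The photosystem I antenna genes had the lowest median change of the classes, -6.25 in rdo5-1 and -6.31 in NIL-DOG1. LHCA2 (AT3G61470), a member of the antenna belt, had 5.34, 4.78 and 5.33 in rdo5-1 dry seeds against 12.53, 12.51 and 12.54 in rdo5-1 siliques. In NIL-DOG1 it had 5.05, 4.81 and 4.71 in dry seeds against 12.53, 12.36 and 12.39 in siliques. Dry seed arrays were far below silique arrays in both genotypes, and the fall was 166-fold in rdo5-1 (log2 change -7.38 ± 0.16, limma adjusted p = 1.03e-15) and 190-fold in NIL-DOG1 (-7.57 ± 0.16, adjusted p = 8.28e-16). LHCA1, LHCA3 and LHCA4, which complete that belt, fell by 6.02 to 6.57 in rdo5-1 and by 6.13 to 6.62 in NIL-DOG1. LHCA5 and LHCA6, which link photosystem I to the NADH dehydrogenase-like complex, fell less. LHCA5 (AT1G45474) had 7.77, 7.65 and 7.64 in rdo5-1 dry seeds against 9.43, 9.40 and 9.45 in rdo5-1 siliques, and 7.57, 7.65 and 7.74 in NIL-DOG1 dry seeds against 9.35, 9.23 and 9.02 in NIL-DOG1 siliques. The stages again did not overlap, with a change of -1.74 ± 0.08 in rdo5-1 and -1.55 ± 0.08 in NIL-DOG1, the smallest of the class. LHCA6 changed by -3.36 ± 0.18 in rdo5-1 and -3.16 ± 0.18 in NIL-DOG1. Unlike LHCA5, it was near the array medians in dry seeds, at a mean of 3.86 in rdo5-1 and 3.99 in NIL-DOG1. Its silique means were 7.21 and 7.15, so its fall may be understated and its smaller change is uncertain.

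The photosystem II antenna genes had a median change of -3.31 in rdo5-1 and -3.28 in NIL-DOG1 and differed widely among themselves. LHCB3 (AT5G54270), a component of the trimeric antenna, had 4.47, 3.88 and 4.46 in rdo5-1 dry seeds against 11.26, 10.91 and 11.04 in rdo5-1 siliques. In NIL-DOG1 it had 3.90, 4.14 and 3.70 in dry seeds against 11.13, 11.08 and 10.94 in siliques. Its values in dry seeds were near the array medians, and its change was the largest of the class, -6.80 ± 0.15 in rdo5-1 and -7.13 ± 0.15 in NIL-DOG1. LHCB4.1 (AT5G01530), a monomeric antenna protein next to the photosystem II core, stayed far above the array medians: it had 10.10, 9.98 and 9.89 in rdo5-1 dry seeds against 11.82, 11.71 and 11.82 in rdo5-1 siliques, and 10.13, 10.06 and 10.02 in NIL-DOG1 dry seeds against 11.87, 11.76 and 11.62 in NIL-DOG1 siliques. Stages did not overlap, and LHCB4.1 fell 3.47-fold in rdo5-1 and 3.21-fold in NIL-DOG1. LHCB2.2, another gene of the trimeric antenna, changed by -2.28 ± 0.16 in rdo5-1 and -1.67 ± 0.16 in NIL-DOG1. Unlike LHCB4.1, it was near the array medians in dry seeds, at a mean of 4.13 in rdo5-1 and 4.21 in NIL-DOG1. Its silique means were 6.41 and 5.88, so its fall may be understated. The 8 genes of the trimeric antenna (LHCB1 to LHCB3) ranged from -6.80 to -2.28 in rdo5-1 and from -7.13 to -1.67 in NIL-DOG1, and the 5 of the monomeric antenna (LHCB4 to LHCB6) from -6.16 to -1.79 and from -5.92 to -1.68.

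Photosystem I subunits had a median change of -6.19 in rdo5-1 and -6.12 in NIL-DOG1. PSAE1 (AT4G28750), on the stromal side where ferredoxin docks, averaged 4.33 ± 0.11 in rdo5-1 dry seeds against 11.31 ± 0.13 in rdo5-1 siliques (SD, n = 3 each), a 126-fold fall. In NIL-DOG1 it had 4.38, 4.65 and 4.64 in dry seeds against 11.43, 11.31 and 11.10 in siliques, a 106-fold fall. PSAN, a lumenal subunit on the side where plastocyanin docks, fell by 6.79 in rdo5-1 and by 6.96 in NIL-DOG1. PSAD2 (AT1G03130), also a ferredoxin-docking subunit, had the smallest change of the class, with 6.71, 6.60 and 6.76 in rdo5-1 dry seeds against 9.81, 9.60 and 9.53 in rdo5-1 siliques, and 6.49, 6.52 and 6.63 in NIL-DOG1 dry seeds against 9.64, 9.74 and 9.69 in NIL-DOG1 siliques. Stages were well apart in each of these genes, and the other photosystem I genes fell by 5.08 or more in each genotype.

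Photosystem II subunits had a median change of -5.39 in rdo5-1 and -5.07 in NIL-DOG1. PSBX (AT2G06520), a small membrane subunit, had 5.64, 5.48 and 5.68 in rdo5-1 dry seeds against 12.49, 12.34 and 12.47 in rdo5-1 siliques. It had 5.73, 5.65 and 5.54 in NIL-DOG1 dry seeds against 12.38, 12.46 and 12.39 in NIL-DOG1 siliques. This was the largest fall of the class, 114-fold in rdo5-1 and 109-fold in NIL-DOG1, with tight replicates at both stages. PSBR (AT1G79040), a subunit needed for stable assembly of the oxygen-evolving proteins, had the smallest fall, 14.1-fold in rdo5-1 and 14.6-fold in NIL-DOG1. It had 8.87, 9.09 and 8.98 in rdo5-1 dry seeds against 12.75, 12.78 and 12.85 in rdo5-1 siliques, and 8.87, 8.73 and 8.91 in NIL-DOG1 dry seeds against 12.72, 12.66 and 12.73 in NIL-DOG1 siliques. The 5 genes of the oxygen-evolving complex (PSBO1, PSBO2, PSBP1, PSBQ1 and PSBQ2) fell by 4.44 to 6.53 in rdo5-1 and by 4.55 to 6.46 in NIL-DOG1.

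The 4 Rubisco small subunit genes split. RBCS1A (AT1G67090) had 6.88, 6.81 and 6.59 in rdo5-1 dry seeds against 11.31, 11.55 and 11.63 in rdo5-1 siliques, a change of -4.74 ± 0.12, and in NIL-DOG1 it changed by -4.69 ± 0.12. RBCS3B fell by 5.06 in rdo5-1 and by 4.77 in NIL-DOG1. RBCS1B (AT5G38430) lay near the low end of the scale at every stage, with 2.45, 3.10 and 2.93 in rdo5-1 dry seeds against 3.26, 2.89 and 2.99 in rdo5-1 siliques, and 2.55, 2.67 and 2.48 in NIL-DOG1 dry seeds against 4.17, 3.51 and 2.82 in NIL-DOG1 siliques. In rdo5-1 the stages overlapped and the change of -0.22 ± 0.24 was not called (adjusted p = 0.477). In NIL-DOG1 the change was -0.93 ± 0.24 (adjusted p = 0.00332), and -0.60 (adjusted p = 0.0182) without NIL-DOG1 silique replicate 1; the difference between the genotypes in this change, 0.71 ± 0.34, was not called (adjusted p = 0.690). RBCS2B had 2.45, 2.82 and 2.89 in rdo5-1 dry seeds against 5.39, 3.20 and 4.46 in rdo5-1 siliques, the widest replicate spread among the 44 genes. It fell 3.09-fold in rdo5-1 and 2.25-fold in NIL-DOG1, and the NIL-DOG1 call was lost without silique replicate 2 of that line (adjusted p = 0.0501). RBCS1B, RBCS2B and RBCS3B are neighbours on chromosome 5 and near-identical copies, as are LHCB1.1 to LHCB1.3, LHCB1.4 and LHCB1.5, and LHCB2.1 and LHCB2.2, so the values of these genes are uncertain where probes match more than 1 copy.

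**Figure D2:**
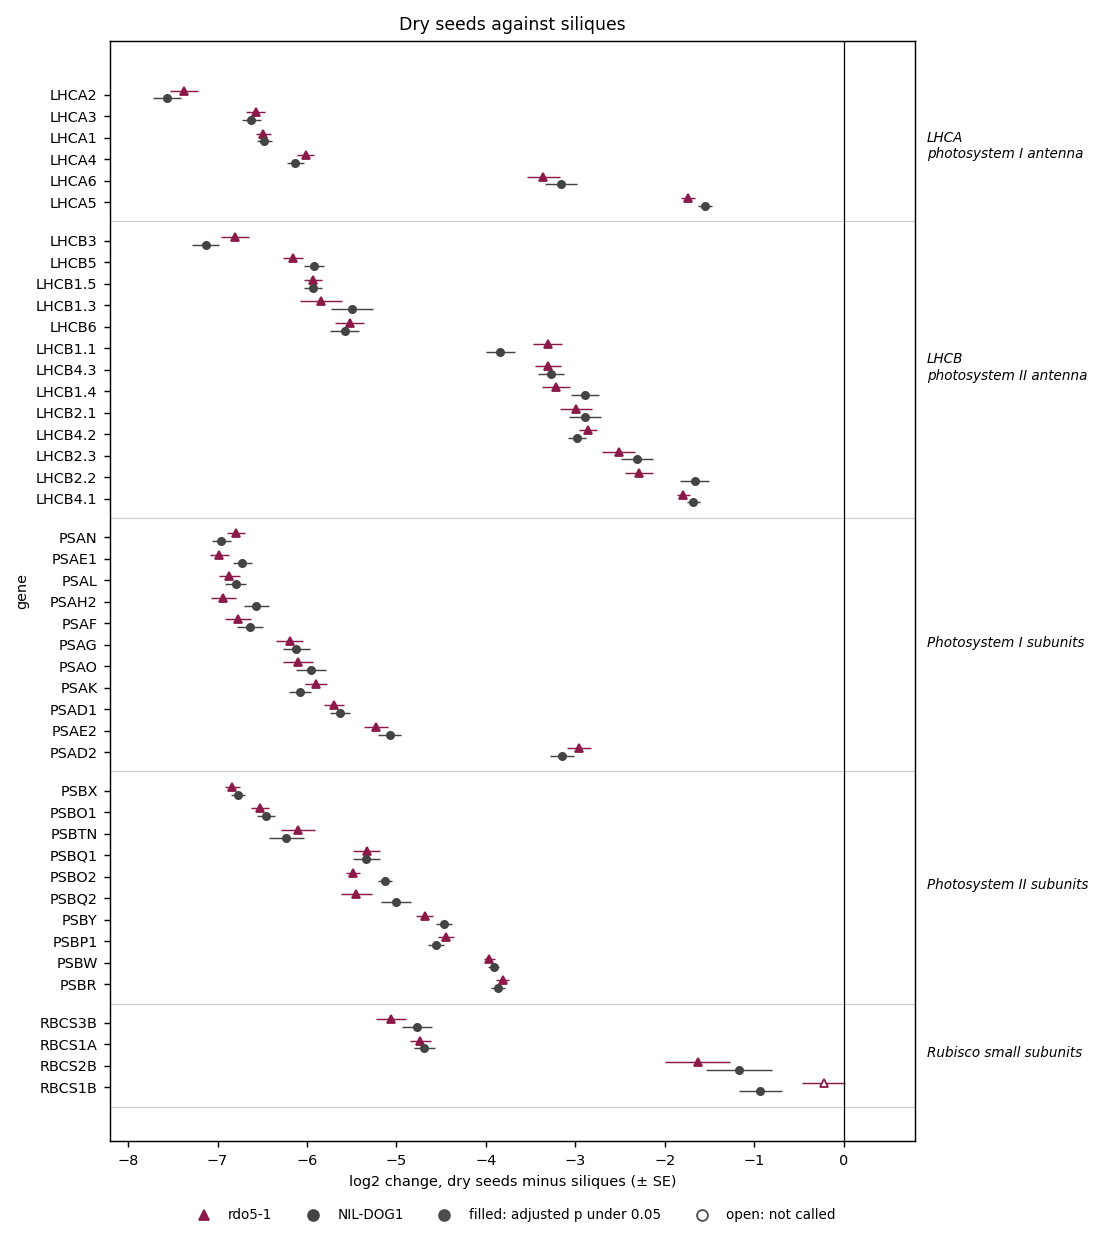
Log2 change in dry seeds minus siliques (x axis, with SE) for each of the 44 genes (rows, by class), with rdo5-1 as triangles above NIL-DOG1 as circles and open symbols for changes that were not called. All points lie left of 0, from -7.57 for LHCA2 to -0.22 for RBCS1B, which is the only open symbol.

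The 2 genotypes gave nearly the same order of changes in dry seeds against siliques, and a less similar order on imbibition. Across the 44 genes, the dry seed against silique changes of rdo5-1 and NIL-DOG1 had Pearson's r of 0.991 and Spearman's rho of 0.986, with a median absolute difference of 0.15. For imbibed against dry seeds, r was 0.740 and rho was 0.532, with a median absolute difference of 0.14. Changes on imbibition covered a narrower range, -1.02 to 0.33, beside -7.57 to -0.22 in dry seeds against siliques. The lower r and rho are therefore not read as a larger difference between the genotypes. Genes are not independent replicates, and the points share probes and arrays, so this is a description with no p-value. The genotype effect in dry seeds minus that in siliques was called for 0 of 44 genes by limma, where 0.05% of all genes were called. At an unadjusted p under 0.05 there were 3 of the 44 genes, a count given without the share of all genes.

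Copies of the same subunit fell by different amounts. For 10 pairs of related genes, the difference between both members was taken within each array and its change between stages was tested by an exact two-sided permutation of stage labels within genotype. There were 400 arrangements with a smallest possible p of 0.005, and p-values were adjusted over 20 tests. In dry seeds against siliques, 8 pairs were called, each at the smallest possible p (adjusted p = 0.0111). PSAD1 fell by 2.61 more than PSAD2, PSAE1 by 1.70 more than PSAE2, and PSBO1 by 1.18 more than PSBO2, averaged over both genotypes. PSBO2 averaged 4.12 in rdo5-1 and 4.19 in NIL-DOG1 dry seeds, near the array medians. Its fall may be understated, so the size of its difference from PSBO1 is uncertain. LHCB1.5 fell by 2.88 more than LHCB1.4, but these are near-identical neighbours, so this difference is uncertain where probes match both. Within LHCB4, LHCB4.1 fell by 1.18 less than LHCB4.2 and by 1.55 less than LHCB4.3. No difference was called between PSBQ1 and PSBQ2 (-0.11, exact permutation p = 0.535) or between RBCS1A and RBCS3B (0.20, exact permutation p = 0.21). PSBQ2 averaged 3.60 in rdo5-1 and 3.68 in NIL-DOG1 dry seeds, below the array medians, so a difference from PSBQ1 could be hidden. RBCS3B averaged 4.32 in rdo5-1 and 4.53 in NIL-DOG1 dry seeds, near the array medians, so a difference from RBCS1A could be hidden too. The other 2 pairs called were RBCS1A with RBCS1B and RBCS1A with RBCS2B; RBCS1B lay near the low end of the scale at every stage and RBCS2B did in seeds, so these pairs are not read as unequal falls and no size is given.

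Fruit-wall markers moved with this fall. Of 12 silique valve and valve margin markers, 9 fell and 1 rose in dry seeds against siliques in each genotype. For this and the marker counts below, 25.7% of all genes fell in rdo5-1 and 26.6% in NIL-DOG1, and 27.2% and 27.4% rose. ADPG1, a polygalacturonase of the dehiscence zone, fell by 7.02 in rdo5-1 and by 6.40 in NIL-DOG1, and YAB3 rose by 1.04 and 0.98. Summed on the linear scale, these 12 markers were at 509 to 584 in rdo5-1 dry seeds against 2058 to 2723 in rdo5-1 siliques, and at 506 to 552 in NIL-DOG1 dry seeds against 1660 to 2053 in NIL-DOG1 siliques. Of 5 stomatal lineage markers, 3 fell in rdo5-1 and 4 in NIL-DOG1, led by MYB60, which fell by 4.36 in rdo5-1 and by 4.28 in NIL-DOG1. Their sum was 91.0 to 104 in rdo5-1 dry seeds against 530 to 539 in rdo5-1 siliques, and 76.4 to 85.9 in NIL-DOG1 dry seeds against 416 to 506 in NIL-DOG1 siliques. The 9 markers of mature seed (storage proteins and oleosins) averaged 13.9 to 14.0 in dry seeds of rdo5-1 against 14.2 to 14.3 in its siliques, and 13.9 in dry seeds of NIL-DOG1 against 14.2 to 14.3 in its siliques. Storage transcripts were abundant in both kinds of sample, and 5 of the 9 fell in each genotype, led by SESA2, which fell by 0.84 in rdo5-1 and by 0.92 in NIL-DOG1. None of these markers is at 0 on this scale; 9 of the 12 valve markers were below the array median in dry seeds and 4 in siliques. The part of the fruit wall in the fall of the photosynthesis genes was not tested.

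Photosynthesis genes stayed low after 6 h of imbibition, and those called by limma were lower than in dry seeds. In imbibed against dry seeds, 9 of 44 genes fell in rdo5-1, where 11.9% of all genes fell, and 11 of 44 fell in NIL-DOG1, where 10.6% of all genes fell, so the shares were above those of all genes. By limma none rose in either genotype, where 16.4% and 14.2% of all genes rose; at an unadjusted p under 0.05, 13 genes changed in rdo5-1 and 14 in NIL-DOG1. The 9 genes were called in both genotypes: LHCA1, LHCA5, LHCB4.1, LHCB4.2, LHCB4.3, LHCB5, PSAD2, PSAK and PSBP1. The median change of the 44 genes was -0.14 in rdo5-1 and -0.16 in NIL-DOG1, beside -0.04 and -0.02 over all genes. This comparison shares the dry seed arrays with the one before it.

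All LHCB4 genes and LHCB5 were among them. LHCB4.1 had 9.30, 9.28 and 9.25 in rdo5-1 imbibed seeds against 10.10, 9.98 and 9.89 in rdo5-1 dry seeds. In NIL-DOG1 it had 9.66, 9.58 and 9.55 in imbibed seeds against 10.13, 10.06 and 10.02 in dry seeds. Imbibed arrays were below dry arrays in both genotypes, and the fall was 1.64-fold in rdo5-1 (-0.71 ± 0.07, adjusted p = 1.82e-06) and 1.39-fold in NIL-DOG1 (-0.47 ± 0.07, adjusted p = 1.48e-04). LHCB5 (AT4G10340), a monomeric antenna protein, had 5.26, 4.85 and 4.92 in rdo5-1 imbibed seeds against 5.84, 5.67 and 5.87 in rdo5-1 dry seeds, and 4.73, 4.84 and 5.07 in NIL-DOG1 imbibed seeds against 6.01, 5.78 and 5.90 in NIL-DOG1 dry seeds. This was the largest fall of the antenna genes on imbibition, 1.72-fold in rdo5-1 and 2.02-fold in NIL-DOG1, again with no overlap. LHCB4.2 changed by -0.67 ± 0.10 in rdo5-1 and -0.48 ± 0.10 in NIL-DOG1, and LHCB4.3 by -0.61 ± 0.14 and -0.52 ± 0.14. LHCB6, the remaining monomeric antenna gene, changed by -0.21 ± 0.16 in rdo5-1 and -0.10 ± 0.16 in NIL-DOG1 and was not called. The 8 genes of the trimeric antenna lay between -0.22 and 0.20 in rdo5-1 and between -0.23 and 0.30 in NIL-DOG1, and 0 of 8 were called by limma. Of these, LHCB1.1, LHCB2.2, LHCB2.3 and LHCB3 were already near the array medians in dry seeds, at means of 3.92 to 4.27. A further fall of those genes could be hidden. This split of the antenna was made after the values were seen, and the difference between its parts was not tested.

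In photosystem I, PSAD2 had 6.20, 5.63 and 5.87 in rdo5-1 imbibed seeds against 6.71, 6.60 and 6.76 in rdo5-1 dry seeds, and 5.40, 5.60 and 5.92 in NIL-DOG1 imbibed seeds against 6.49, 6.52 and 6.63 in NIL-DOG1 dry seeds. Imbibed arrays were lower without overlap, by 1.73-fold in rdo5-1 and 1.87-fold in NIL-DOG1. PSAD2 fell by 0.61 more than PSAD1 (exact permutation p = 0.005, adjusted p = 0.0111), the only pair called at this step. PSAK, which binds antenna proteins to photosystem I, changed by -0.49 ± 0.12 in rdo5-1 and -0.67 ± 0.12 in NIL-DOG1. PSAE2 changed by -0.29 ± 0.13 in NIL-DOG1, not called; of the 18 fits that left out 1 array, only the one without imbibed seed replicate 3 of that line called it (-0.41, adjusted p = 0.0438). PSAE1 changed by -0.08 ± 0.10 in rdo5-1, which was not called, and by -0.40 ± 0.10 in NIL-DOG1 (adjusted p = 0.00929). Averaged over both genotypes, PSAG changed least in the class, by -0.00 ± 0.15 in rdo5-1 and -0.01 ± 0.15 in NIL-DOG1.

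In photosystem II, PSBP1 (AT1G06680), an extrinsic protein of the oxygen-evolving complex, had 6.66, 6.53 and 6.61 in rdo5-1 imbibed seeds against 7.26, 7.29 and 7.23 in rdo5-1 dry seeds. In NIL-DOG1 it had 6.57, 6.78 and 6.42 in imbibed seeds against 7.23, 7.14 and 7.09 in dry seeds. The imbibed arrays were lower in both genotypes, by 1.58-fold in rdo5-1 and 1.48-fold in NIL-DOG1. PSBW, which stabilises the complexes of photosystem II with its antenna, changed by -0.11 ± 0.06 in rdo5-1, not called, and by -0.19 ± 0.06 in NIL-DOG1 (adjusted p = 0.0438). That call was lost in 10 of the 18 fits that left out 1 array, namely rdo5-1 silique replicate 1, rdo5-1 dry seed replicate 3, NIL-DOG1 dry seed replicate 2 or 3, or any imbibed seed array, with an adjusted p of up to 0.173. PSBTN, a small lumenal subunit, changed by -0.43 ± 0.19 in NIL-DOG1, not called; of the 18 fits that left out 1 array, only the one without dry seed replicate 3 of that line called it (-0.66, adjusted p = 0.0112). PSBR went the other way in rdo5-1, with 9.17, 9.27 and 9.06 in imbibed seeds against 8.87, 9.09 and 8.98 in dry seeds. These arrays overlapped, and the change of 0.19 ± 0.08 was not called (adjusted p = 0.0850); it was called without rdo5-1 dry seed replicate 2 (adjusted p = 0.0425) or without rdo5-1 imbibed seed replicate 3 (adjusted p = 0.0496). None of the 4 RBCS genes was called by limma, and their changes lay between -0.15 and 0.14 in rdo5-1 and between -0.27 and 0.03 in NIL-DOG1.

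Of the photosystem I antenna genes, LHCA1 had 5.54, 5.49 and 5.61 in rdo5-1 imbibed seeds against 5.68, 5.89 and 5.90 in rdo5-1 dry seeds, and 5.36, 5.44 and 5.36 in NIL-DOG1 imbibed seeds against 5.86, 5.74 and 5.81 in NIL-DOG1 dry seeds. Imbibed arrays were lower in both genotypes. The change was -0.27 ± 0.08 in rdo5-1 (adjusted p = 0.0217) and -0.42 ± 0.08 in NIL-DOG1 (adjusted p = 0.00119). The rdo5-1 call was lost without its dry seed replicate 2 (adjusted p = 0.0856) or 3 (0.0832), or without its imbibed seed replicate 1 (0.0569) or 2 (0.0758). LHCA3 changed by -0.29 ± 0.11 in rdo5-1, not called (adjusted p = 0.0541), and was called without rdo5-1 silique replicate 1 (0.0406) or NIL-DOG1 dry seed replicate 1 (0.0362) or 2 (0.0210). LHCA5 changed by -0.30 ± 0.08 in rdo5-1 and -0.34 ± 0.08 in NIL-DOG1. LHCA2 went the other way in NIL-DOG1, with 5.10, 5.25 and 5.22 in imbibed seeds against 5.05, 4.81 and 4.71 in dry seeds. Every imbibed array was the higher one, but the change of 0.33 ± 0.16 was not called (adjusted p = 0.153), and in rdo5-1 LHCA2 had 5.12, 5.51 and 4.83 in imbibed seeds against 5.34, 4.78 and 5.33 in dry seeds, which overlapped. The NIL-DOG1 call of LHCB4.3 was likewise lost without dry seed replicate 2 (adjusted p = 0.0539) or imbibed seed replicate 1 (0.0747) or 2 (0.0705) of that line.

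**Figure D3:**
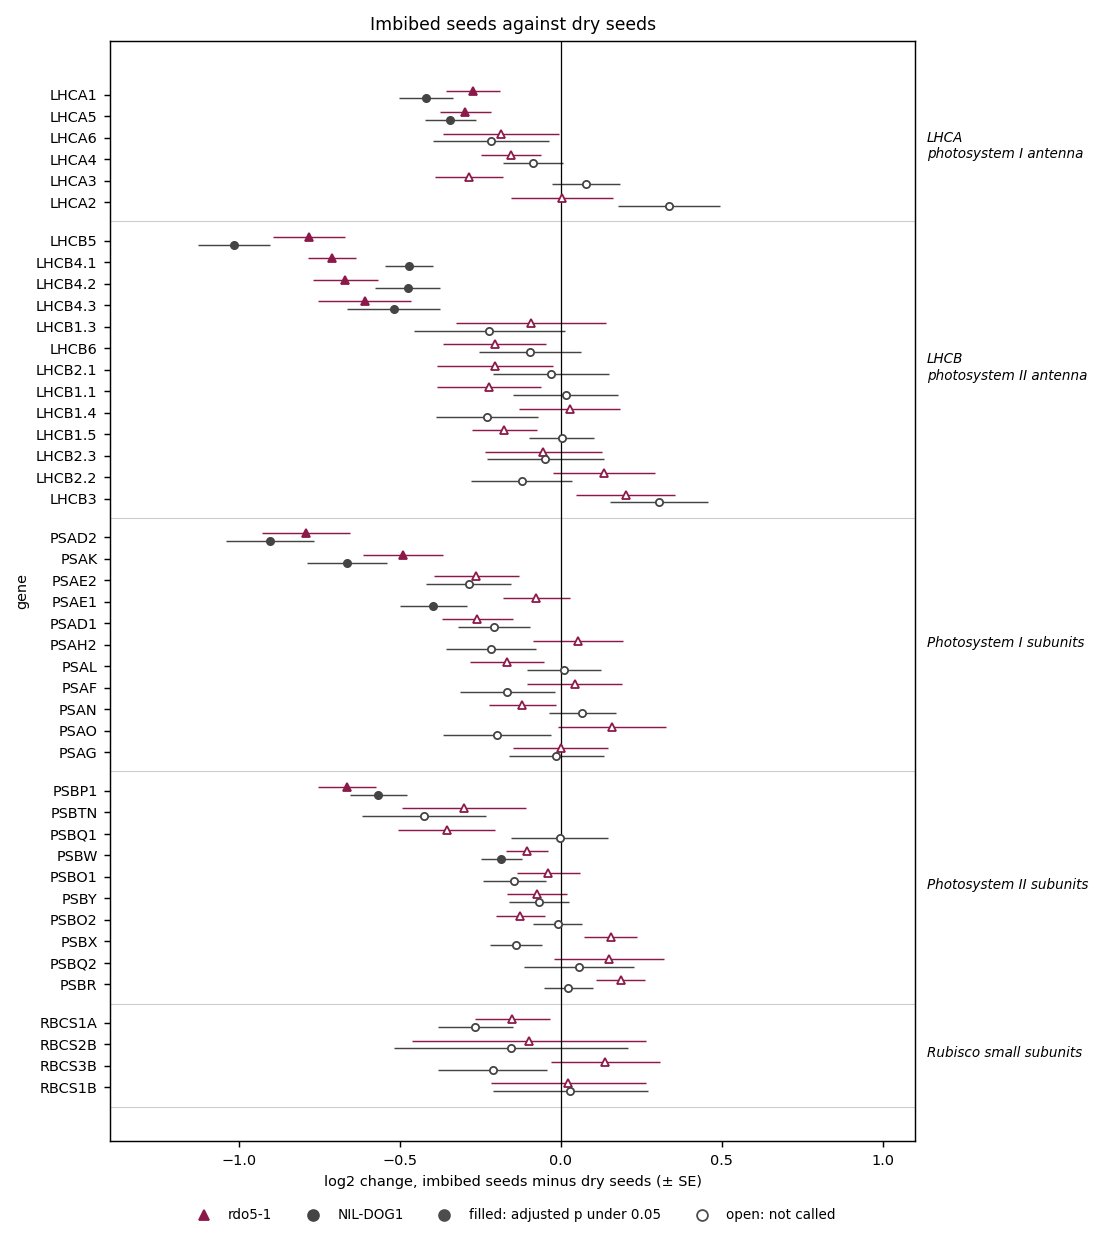
Log2 change in imbibed minus dry seeds (x axis, with SE) for each of the 44 genes (rows, by class), with rdo5-1 as triangles above NIL-DOG1 as circles and open symbols for changes that were not called. Filled symbols all lie left of 0, with LHCB5 in NIL-DOG1 furthest at -1.02, and the open symbols surround 0.

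Of the genes called lower on imbibition, 8 of 9 in rdo5-1 and 9 of 11 in NIL-DOG1 were among those of higher mean level in seeds. The 44 genes were divided by their mean over the 12 seed arrays, a division made after the values were seen. The 22 genes of higher mean were at 4.95 and above. Of the 22 of lower mean (4.86 and below), 1 fell in rdo5-1 (PSAK), where 11.9% of all genes fell, and 2 in NIL-DOG1 (PSAE1 and PSAK), where 10.6% did, so these counts do not stand out from all genes. The difference between the 22 genes of higher and the 22 of lower mean was not tested. The genotype effect in imbibed minus dry seeds was called for 0 of 44 genes by limma, where 0.02% of all genes were called. Calls made in NIL-DOG1 alone are therefore not shown to differ from rdo5-1. At an unadjusted p under 0.05 there were 4 of the 44 genes, a count given without the share of all genes.

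Between the genotypes, no photosynthesis gene was called at any stage. For rdo5-1 against NIL-DOG1, limma called 0 of 44 genes at each of the 3 stages (siliques, dry and imbibed), where 0.2%, 0.137% and 0.633% of all genes were called. At an unadjusted p under 0.05 there were 4, 2 and 5 of the 44 genes at these stages. The share of all genes at that threshold is not given here, so nothing is read from these counts. In siliques the median difference was 0.09 and 35 of the 44 differences were above 0. The median was 0.02 with 23 above 0 among dry seeds, and 0.05 with 28 above 0 among imbibed seeds; over all genes it was close to 0 at each stage. The genes share their arrays, so these signs are not independent. The 95% interval of the difference, not adjusted for the number of genes, lay within 0.5 of 0 for 34 genes in siliques, for 34 in dry seeds, and for 37 in imbibed seeds. The widest intervals reached -0.97 for RBCS1B and 1.11 for RBCS2B, both in siliques, so differences up to about that size could have gone uncalled for these genes.

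The gene nearest to a call was LHCB4.1 in imbibed seeds, whose values of 9.30, 9.28 and 9.25 in rdo5-1 stood against 9.66, 9.58 and 9.55 in NIL-DOG1. All rdo5-1 arrays were below all NIL-DOG1 arrays. The difference was -0.32 ± 0.07, with a 95% interval of -0.48 to -0.16 and an adjusted p of 0.0728, which ranged from 0.0264 to 0.279 over the alternatives run. PSBR in imbibed seeds had 9.17, 9.27 and 9.06 in rdo5-1 against 8.78, 8.90 and 8.90 in NIL-DOG1. Here the rdo5-1 arrays were the higher ones, with a difference of 0.31 ± 0.08 and an adjusted p of 0.102. PSBX, also higher on every rdo5-1 array at this stage, differed by 0.25 ± 0.08 (adjusted p = 0.270).

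In siliques, 6 genes had all rdo5-1 arrays above all NIL-DOG1 arrays, where 6.19% of all genes did: LHCA5, LHCB2.2, PSAL, PSBO2, PSBR and PSBY. For 0 of the 44 genes were they all below, where 6.26% of all genes were. PSBO2 had 9.62, 9.72 and 9.49 in rdo5-1 siliques against 9.30, 9.33 and 9.34 in NIL-DOG1 siliques, a difference of 0.29 ± 0.08 (adjusted p = 0.212). LHCB2.2 had 6.54, 6.35 and 6.36 in rdo5-1 siliques against 6.24, 5.59 and 5.79 in NIL-DOG1 siliques, the largest difference at this stage, 0.54 ± 0.16 (adjusted p = 0.276). LHCA5, PSAL, PSBY and PSBR differed by 0.22, 0.22, 0.17 and 0.09. Next in size were RBCS1B, at -0.45 ± 0.24, and LHCB1.1, at -0.40 ± 0.16, whose arrays overlapped between genotypes.

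In dry seeds, PSAN and PSBP1 were higher on every rdo5-1 array, where 7.63% of all genes were, by 0.15 ± 0.10 and 0.11 ± 0.09, and 0 genes were lower on every array, where 7.05% of all genes were. The largest differences in dry seeds were those of LHCB3 (0.35 ± 0.15), LHCA2 (0.29) and PSAO (-0.27), with overlapping arrays. In imbibed seeds, 8 genes were higher on every rdo5-1 array, where 8.13% of all genes were: LHCA1, LHCA4, LHCB2.2, LHCB3, PSBR, PSBX, RBCS1A and RBCS1B. Another 4 were lower on every rdo5-1 array, where 7.33% of all genes were: LHCA3, LHCB1.1, LHCB4.1 and PSBO2. PSBO2 was thus on opposite sides in siliques and in imbibed seeds, with -0.19 ± 0.08 in imbibed seeds (limma adjusted p = 0.482). Neither difference was called. The third largest difference in imbibed seeds was that of PSAD2, 0.26, with overlapping arrays.

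**Figure D4:**
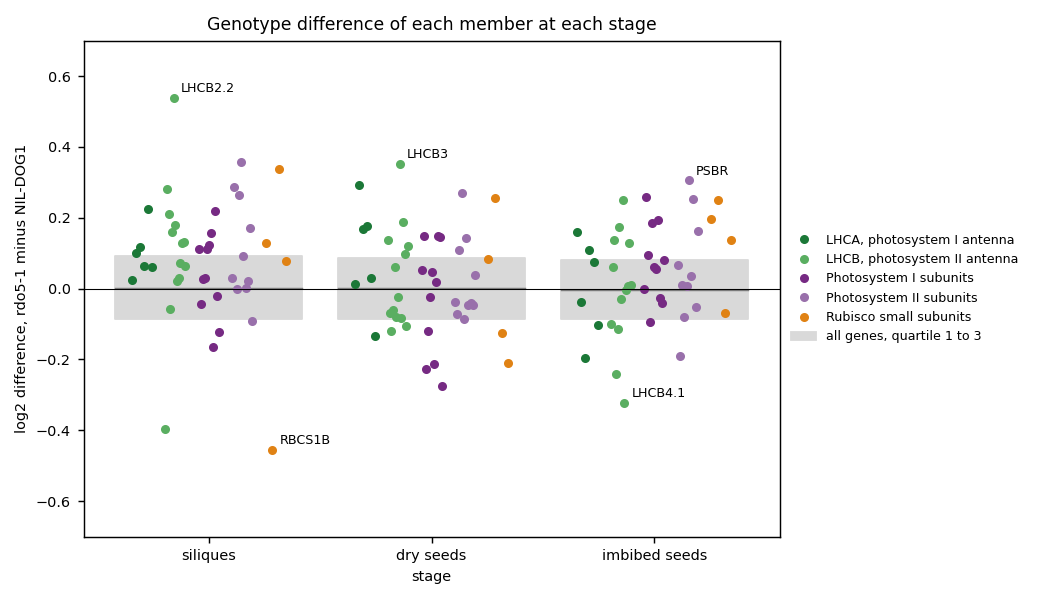
Log2 difference rdo5-1 minus NIL-DOG1 (y axis) of each of the 44 genes (points, coloured by class, drawn without error) in siliques, dry seeds and imbibed seeds (x axis), with a grey box from quartile 1 to quartile 3 of all genes and a line at their median. Points lie between -0.45 (RBCS1B, siliques) and 0.54 (LHCB2.2, siliques), and none was called.

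The rest of the photosynthetic pathway was followed with lists of genes outside the 44. In dry seeds against siliques, 15 of 16 Calvin-Benson cycle genes fell in each genotype, where 25.7% of all genes fell in rdo5-1 and 26.6% in NIL-DOG1, with a median change of -3.20 in rdo5-1 and -2.88 in NIL-DOG1. RCA, the Rubisco activase, fell by 6.13 in rdo5-1 and by 6.10 in NIL-DOG1, while CP12-3, a small protein related to those that bind cycle enzymes, rose by 1.71 and 1.28. All 11 genes of electron transport and the ATP synthase fell in each genotype, led by the plastocyanin gene PETE2, which fell by 6.97 in rdo5-1 and by 6.85 in NIL-DOG1. Of 8 LHC-like genes, which encode small relatives of the antenna proteins, 7 fell in each genotype and 1, ELIP1, rose in NIL-DOG1. OHP1 fell furthest of these, by 4.23 in rdo5-1 and by 3.99 in NIL-DOG1.

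Most chlorophyll synthesis genes fell in dry seeds against siliques. There were 13 of 18 in each genotype, with a median change of -1.82 in rdo5-1 and -1.89 in NIL-DOG1; 4 rose, a share below the 27.2% and 27.4% of all genes that rose. The cyclase gene CRD1 fell by 5.88 in rdo5-1 and by 5.70 in NIL-DOG1, and CAO, which makes chlorophyll b, rose by 1.02 and 1.14. Of 6 chlorophyll breakdown genes, 4 rose and 2 fell in each genotype, with a median change of 1.82 in rdo5-1 and 1.75 in NIL-DOG1. SGR2, a homologue of the SGR1 protein that takes magnesium from chlorophyll, rose by 4.04 in rdo5-1 and by 4.13 in NIL-DOG1, and the pheophytinase gene PPH rose by 2.48 and 2.47. On imbibition 4 of these 6 genes fell and 2 rose in each genotype, where 11.9% of all genes fell in rdo5-1 and 10.6% in NIL-DOG1. NYC1, a chlorophyll b reductase, fell by 1.77 in rdo5-1 and by 1.51 in NIL-DOG1, and its homologue NOL rose by 0.54 and 0.43.

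On imbibition 4 of 8 LHC-like genes rose in each genotype and 0 fell, where 16.4% of all genes rose in rdo5-1 and 14.2% in NIL-DOG1. OHP1 rose by 0.94 in rdo5-1 and by 0.88 in NIL-DOG1. Of 11 electron transport and ATP synthase genes, 3 rose and 2 fell in rdo5-1, and 2 rose and 1 fell in NIL-DOG1. Of all genes, 11.9% fell in rdo5-1 and 10.6% in NIL-DOG1. Among these 11, FD1, a ferredoxin, rose by 1.23 and 0.95, and PETC changed by -0.49 and -0.35. Among 16 Calvin-Benson genes, 3 rose and 3 fell in rdo5-1 and 2 rose and 3 fell in NIL-DOG1, with rising shares near those of all genes; CP12-3 fell by 0.96 and 1.06. Of the plastid-encoded partners of these proteins only PSBA, the photosystem II reaction centre protein, was analysed here. It rose by 1.00 in rdo5-1 (adjusted p = 0.00951) and changed by -0.15 in NIL-DOG1, which was not called; the difference between the genotypes in this change, 1.15 ± 0.38, was not called either (adjusted p = 0.546).

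**Figure D5:**
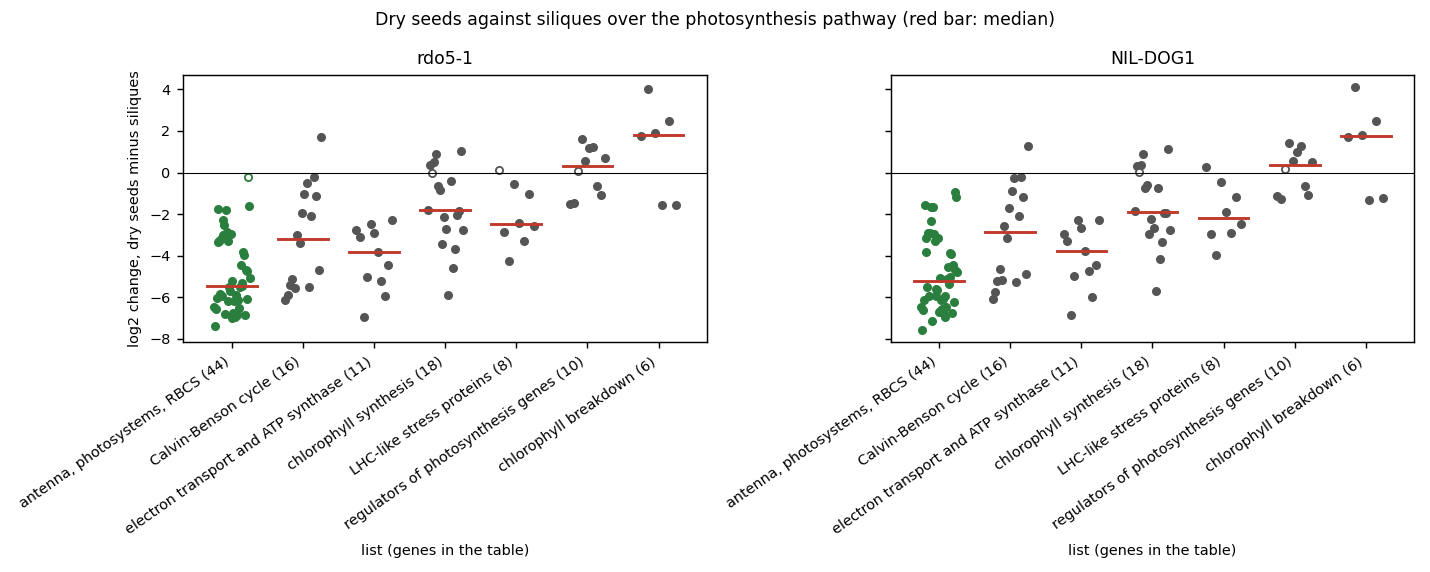
Log2 change in dry seeds minus siliques (y axis) of each gene (points) in the photosynthesis genes and 6 other lists (x axis, with the number of genes), in a panel for rdo5-1 and a panel for NIL-DOG1, with a red bar at the list's median and open symbols for changes that were not called. In rdo5-1 the medians run from -5.47 for the photosynthesis genes to 1.82 for the chlorophyll breakdown genes.

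Of 10 regulators of photosynthesis genes, 5 rose and 4 fell in dry seeds against siliques in each genotype, where 27.2% and 27.4% of all genes rose and 25.7% and 26.6% fell, so movement in both directions is not particular to this list. GLK1 and GLK2, transcription factors that activate photosynthesis genes, fell by 1.54 and 1.47 in rdo5-1 and by 1.14 and 1.29 in NIL-DOG1. CGA1 (AT4G26150), a GATA factor that promotes greening, went the other way, with the largest rise of the list, 1.63 in rdo5-1 and 1.42 in NIL-DOG1. PIF1, a repressor of greening and germination, rose on imbibition by 1.73 in each genotype. CGA1 had the lowest change of the list at that step, -0.50 in rdo5-1 and -0.68 in NIL-DOG1. CGA1 was also the only gene of these lists called between genotypes. In imbibed seeds it had 6.10, 5.89 and 5.97 in rdo5-1 against 5.43, 5.55 and 5.49 in NIL-DOG1. The rdo5-1 arrays were all higher, with a difference of 0.50 ± 0.08 (adjusted p = 0.00502). In dry seeds it had 6.53, 6.38 and 6.55 in rdo5-1 against 6.25, 6.19 and 6.07 in NIL-DOG1, higher on every rdo5-1 array but not called (0.32 ± 0.08, adjusted p = 0.154).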

How the data were processed

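The deposited table holds 1 log2 value per gene and array; the submitters' processing notes name RMA, a method that corrects background, quantile-normalizes and summarises probes. No version, probe-set definition, genome build or statement on joint normalization of the arrays was found in the sources used here. A TAIR10.1 gene table matched 29464 of 30014 codes and all 46 loci, and served for names and neighbours. Groups and replicate numbers came from the labels.

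Everything else was computed here. All 18 arrays entered 1 limma fit (version 3.58.1, R 4.3.3; lmFit and eBayes) with a term for each of the 6 groups, 12 residual degrees of freedom and no filter, and p-values were adjusted (Benjamini-Hochberg) over all genes. The number of arrays limits the precision. The procedure was tested on simulated data. Members and lists were chosen with earlier results of these data known. Genes named were the largest and smallest changes per class, those against their class, related pairs, genes whose genotype arrays did not overlap, the 3 largest genotype differences and the extremes of each list; not all are printed, and others were chosen after their values were seen. Alternatives were leaving out the dimmest 30% of genes, quantile normalization again, median centring, trend and robust eBayes, array weights, only the arrays compared, a replicate block, a log2 change of at least 1, and leaving out each array.

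Replicate numbers were not used as pairs in the main fit. Residual correlations of same-numbered arrays were -0.05 to 0.17, and 1 of 21 was above 0.1. The highest were 0.17 for replicate 2 and 0.08 for replicate 3, both between genotypes in siliques. These values cannot exclude that same-numbered samples were handled together.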

Additional observations from a re-analysis of the deposited data

How the results depend on the processing

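The counts of genes called in dry seeds against siliques stayed at 43 in rdo5-1 and at 43 to 44 in NIL-DOG1 when single arrays were left out, with 0 rising. In imbibed against dry seeds, leaving out single arrays gave 8 to 10 falling and 0 to 1 rising in rdo5-1, and 9 to 11 falling and 0 rising in NIL-DOG1. The 1 rising gene was PSBR, which was also called when each array was centred on its median (0.23, adjusted p = 0.0325). Centring moved the median of all genes in dry seeds against siliques to 0.29 in rdo5-1 and 0.30 in NIL-DOG1. Between genotypes and for their differences between stages, 0 genes were called whichever array was left out. In imbibed seeds LHCB4.1 was called lower in rdo5-1 (1 gene) with array weights (adjusted p = 0.0264), without the dimmest 30% of genes (0.0481), with trend and robust settings (0.0274) and with the replicate block (0.0421), and PSBR was called higher (1 gene) with trend and robust settings (0.0477). With the replicate block, the counts falling on imbibition were 10 in rdo5-1 and 10 in NIL-DOG1. Requiring a log2 change of at least 1 left 0 genes in rdo5-1 and 1 in NIL-DOG1, because most of these falls are smaller. The pair tests called 9 of 20, and 9 to 10 without single arrays. With the replicate block they called 0, because the smallest p of its 64 arrangements, 0.031, is too large to pass the adjustment at these counts, so this says nothing about stability. No result changed sign among those called. Of 5064 values of single genes under the alternatives other than the log2 change of at least 1, 25 gained a call and 24 lost one.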
